A study of Homo sapiens with 9 samples.

Results

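The 10 transcripts described here encode writers and readers of repressive chromatin: the Polycomb repressive complex 2 (PRC2) core subunits EZH2, SUZ12 and EED, the histone H3 lysine 9 (H3K9) methyltransferases SUV39H1 and SETDB1, the heterochromatin protein 1 (HP1) family CBX1, CBX3 and CBX5, and the DNA methylation pair DNMT1 and UHRF1. They were found among 60420 gene IDs by their symbol in the files of all 9 libraries. This matched 9 of the 10, and UHRF1, whose symbol is missing there, was matched by its Ensembl ID. All 10 had reads in every library (from 294 to 7783) and were among the 13825 genes tested. The libraries come from A375, a human melanoma cell line, and hold 3' end reads (QuantSeq 3' mRNA-Seq, 75 bases, single end) of RNA taken 7 days after the knockdown of SPANX genes, which healthy tissue uses mainly in sperm formation and some tumours switch on. There are 3 libraries each of an EV control, of SPANX KD 86 and of SPANX KD 87, called EV, KD 86 and KD 87 here; the labels do not say what the numbers 86 and 87 stand for, how the knockdown was made, or whether cells were cloned or pooled. The study's title links SPANX to lamin A/C, and chromatin bound at the nuclear lamina is largely of the kind these proteins make.

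PRC2 places methyl groups on lysine 27 of histone H3 (H3K27) through its catalytic subunit EZH2, which needs SUZ12 and EED, and genes marked in this way, many of them developmental regulators, are kept silent together with PRC1. H3K9 methyltransferases write the mark of constitutive heterochromatin, which the HP1 proteins bind and spread. UHRF1 recognises newly replicated, half-methylated DNA and brings in DNMT1, which copies the methylation pattern onto the new strand. EZH2 is often abundant in melanoma and in dividing cells in general.

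Depth recovered from the deposited values was 11310675 to 15564093 reads a library. SPANXC, the better covered of the targeted transcripts, stood at 400.2, 149.9 and 511 normalised reads (reads on a scale common to all libraries) in EV, 102, 35.1 and 42.2 in KD 86 and 25.2, 18.0 and 33.6 in KD 87. SPANXD stood at 102, 27.4 and 97.0 in EV, 0.968, 0.878 and 0 in KD 86 and 5.25, 5.99 and 7.13 in KD 87, and for both all knockdown libraries were below all EV libraries. Reads of near-identical SPANX copies may be split wrongly between them. Of 60420 IDs 45742 were listed at 0 in all libraries, and such a 0 cannot be told from a low value that a filter left out. Of 8 melanocytic markers 4 were above 0, and the defining pigment genes MLANA, TYR, DCT and TYRP1 were listed at 0. The 4 summed to 3087 to 6601 normalised reads in EV, 13953 to 20306 in KD 86 and 8159 to 12384 in KD 87. Most of this sum was SOX10, with means of 3595, 15713 and 9667 in EV, KD 86 and KD 87. In the same order MITF had means of 587, 566 and 730, PMEL 15.6, 10.4 and 24.1, and S100B 153, 248 and 406. All 4 lymphoid and myeloid markers were listed at 0, and none of 3 endothelial markers was above 0. All 6 fibroblast markers were above 0 in some library (COL3A1 in the KD 87 libraries alone), and their summed level was 411 to 468 in EV, 952 to 1308 in KD 86 and 883 to 1073 in KD 87. LUM, DCN and COL1A1 had higher means in both knockdowns. The mean of COL1A2 was lower in KD 86 (10.3 against 16.8 in EV) and that of PDGFRB in KD 87 (196 against 206). Of 4 keratinocyte markers 2 were above 0 (KRT5 and KRT1 were listed at 0). They summed to 1033 to 2191 in EV, 693 to 1171 in KD 86 and 1349 to 1799 in KD 87. The 8 reference transcripts of RNA quality summed to 166332 to 203810.3 in EV, 126744 to 146903 in KD 86 and 193533 to 220292 in KD 87. GAPDH was the largest part of this sum, with means of 81722, 59713 and 110920 in EV, KD 86 and KD 87. In the same order the means were 35346, 32788 and 32284 for ACTB, 34637, 22217 and 32378 for RPLP0 and 291, 268 and 287 for TBP. The part of these shifts in the results was not tested. Libraries of the same replicate number deviated together from their group means (Pearson r of 0.171 to 0.809 across 11320 genes for the 9 pairs, and of -0.712 to 0.233 for the 18 pairs of unlike number). Results are therefore given from limma with the groups alone and, where a call differs or a count moves by over 1.5 times, with the replicate number as a block.

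Few of the 10 transcripts changed by this test, and those that did were EZH2, EED and CBX1. With KD 86, EZH2 and EED fell and 0 of 10 rose (0 also at an unadjusted p under 0.05 and with limma's voom weights), where 35.7% of all genes passed the adjusted p threshold of 0.05 (18% higher and 17.6% lower). With KD 87, EZH2 fell and CBX1 rose, where 10.3% of all genes passed (5.87% higher and 4.43% lower). With each knockdown 2 of 10 members were called, a smaller share than the background with KD 86 and 1 member more than it with KD 87. With the replicate block, EZH2, EED, CBX3 and UHRF1 fell with KD 86 (4 of 10, against 55.4% of all genes called, 27% higher and 28.4% lower). With KD 87 and the block, EZH2, EED, CBX3, SUV39H1 and UHRF1 fell and CBX1 rose (6 of 10, against 31% of all genes, 16.1% higher and 14.9% lower). The median log2 fold change of the 10 was -0.06 with KD 86 and -0.36 with KD 87, where the median of all genes was -0.04 and -0.00081. Both knockdowns are set against the same 3 EV libraries, so their results are not independent. These are bulk samples, in which fewer cells of a type and less RNA per cell cannot be told apart. The labels do not say that replicates came from separate cultures, so the p-values may reflect technical spread alone.

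**Figure D1:**
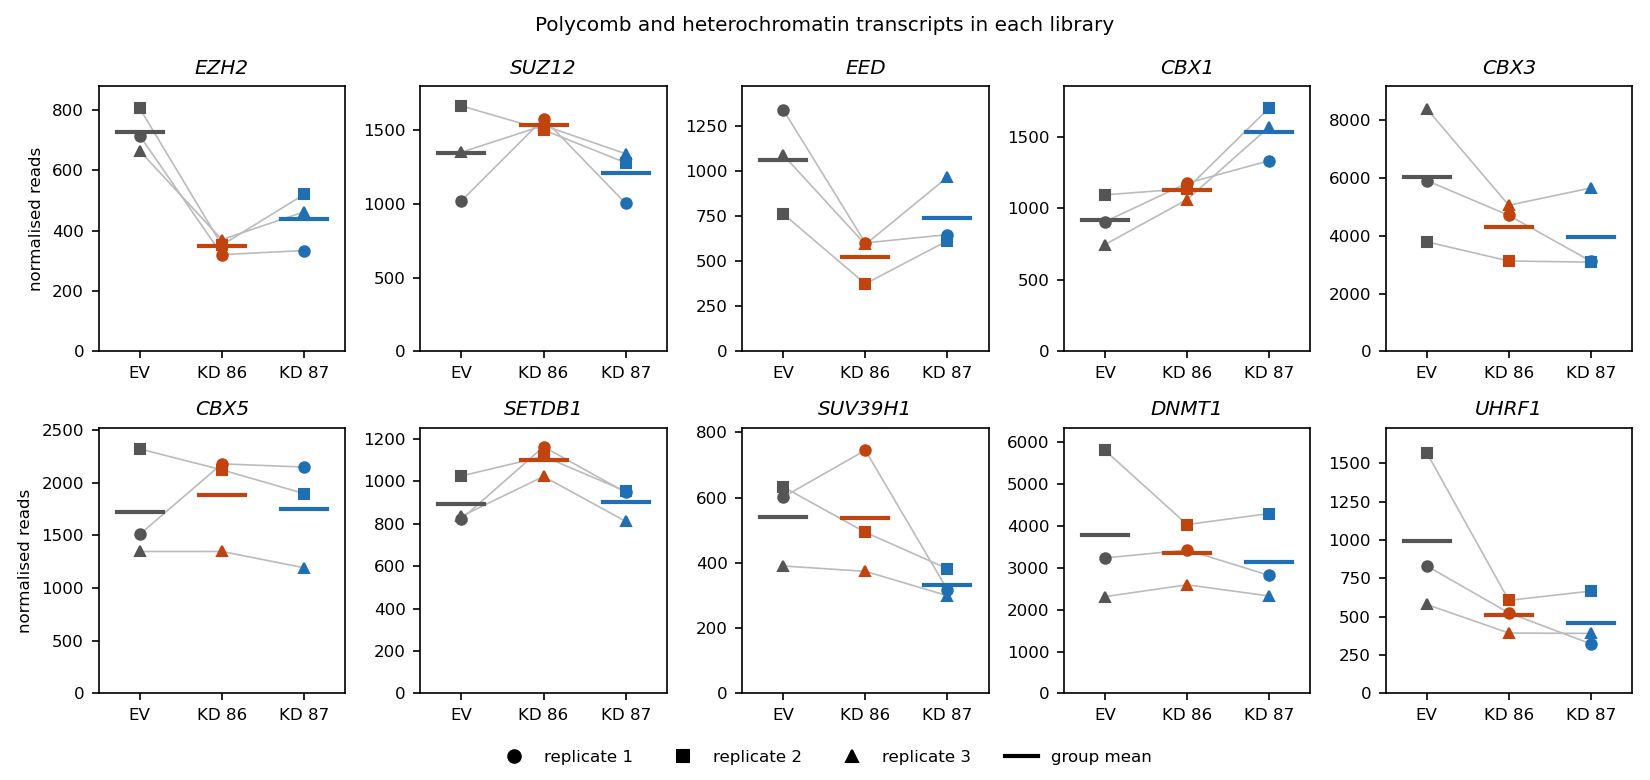
Normalised reads (y axis, from 0, a scale of its own in each panel) of the 10 transcripts in the 9 libraries, by group (x axis). Symbols mark the replicate number, thin lines join libraries of the same number and bars are group means; EZH2 lies lower in all 6 knockdown libraries than in any EV library, and the libraries of EV spread widely for CBX3, DNMT1 and UHRF1.

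Promoter sequence is shown for 6 of these genes. E2F factors, which switch on genes of DNA replication, are known to act on several of them. Of 30 replication genes 20 fell with KD 86 and 15 with KD 87, where 17.6% and 4.43% of all genes did. The letters searched were TTTCCCGC, TTTCGCGC, TTTGCCGC and TTTGGCGC on both strands. They are printed in capitals, in windows of 300 bases that run from 250 bases before to 50 bases from a transcript start (RefSeq, GRCh38.p14). The windows below are those of EZH2 (chr7:148884242-148884541, minus strand), UHRF1 (chr19:4909251-4909550, plus strand), DNMT1 (chr19:10194904-10195203, minus strand), SUZ12 (chr17:31936757-31937056, plus strand), EED (chr11:86244503-86244802, plus strand) and CBX1 (chr17:48101137-48101436, minus strand). The first 4 windows hold the letters and the last 2 do not. EZH2 and UHRF1 have other starts, whose windows are not printed. Those at chr7:148883436-148883735 (EZH2) and chr19:4910117-4910416 (UHRF1) lack the letters, and that at chr19:4909894-4910193 (UHRF1) holds them. The window of CBX3, which also holds them, is not printed.
EZH2: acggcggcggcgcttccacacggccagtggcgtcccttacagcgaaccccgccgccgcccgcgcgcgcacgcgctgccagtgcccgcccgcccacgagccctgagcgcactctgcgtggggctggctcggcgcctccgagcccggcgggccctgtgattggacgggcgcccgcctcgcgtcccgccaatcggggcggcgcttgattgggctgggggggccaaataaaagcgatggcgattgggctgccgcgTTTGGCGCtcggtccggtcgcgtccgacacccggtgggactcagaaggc
UHRF1: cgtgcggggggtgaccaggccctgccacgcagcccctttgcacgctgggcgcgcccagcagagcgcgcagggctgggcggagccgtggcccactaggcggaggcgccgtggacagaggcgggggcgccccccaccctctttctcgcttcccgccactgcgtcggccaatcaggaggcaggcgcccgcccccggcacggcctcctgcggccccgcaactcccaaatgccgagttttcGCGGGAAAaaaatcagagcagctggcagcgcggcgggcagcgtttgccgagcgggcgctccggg
DNMT1: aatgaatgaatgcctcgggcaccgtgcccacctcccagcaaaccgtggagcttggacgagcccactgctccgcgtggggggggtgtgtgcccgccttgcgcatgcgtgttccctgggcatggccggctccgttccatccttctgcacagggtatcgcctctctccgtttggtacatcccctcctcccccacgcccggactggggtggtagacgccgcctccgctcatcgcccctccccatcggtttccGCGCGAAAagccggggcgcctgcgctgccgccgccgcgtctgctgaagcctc
SUZ12: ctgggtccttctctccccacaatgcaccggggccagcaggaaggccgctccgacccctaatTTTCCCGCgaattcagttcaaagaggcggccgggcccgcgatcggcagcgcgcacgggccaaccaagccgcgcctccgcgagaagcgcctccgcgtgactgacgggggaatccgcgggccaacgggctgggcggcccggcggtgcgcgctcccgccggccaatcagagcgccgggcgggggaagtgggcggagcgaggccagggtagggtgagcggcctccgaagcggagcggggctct
EED: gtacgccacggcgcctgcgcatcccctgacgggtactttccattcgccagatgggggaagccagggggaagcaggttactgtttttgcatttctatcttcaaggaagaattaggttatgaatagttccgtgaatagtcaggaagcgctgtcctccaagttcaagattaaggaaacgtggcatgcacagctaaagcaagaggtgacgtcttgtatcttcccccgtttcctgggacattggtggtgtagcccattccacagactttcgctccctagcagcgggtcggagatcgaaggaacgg
CBX1: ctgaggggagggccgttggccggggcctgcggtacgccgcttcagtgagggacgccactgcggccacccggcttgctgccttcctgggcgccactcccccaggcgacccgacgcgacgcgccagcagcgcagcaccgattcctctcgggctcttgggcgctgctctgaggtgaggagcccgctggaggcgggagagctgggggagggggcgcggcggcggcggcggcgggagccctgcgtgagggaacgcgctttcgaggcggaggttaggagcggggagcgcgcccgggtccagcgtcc

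In the printed window of EZH2 the letters begin 1 base after the start base. In those of UHRF1, DNMT1 and SUZ12 they begin 14, 2 and 189 bases before it. Of the 17 windows of the 10 genes, 6 held the letters (35.3%), and they belong to EZH2, SUZ12, CBX3, DNMT1 and UHRF1. The share was 3.3% of 35116 windows of all genes and 48.5% of the 33 windows of the DNA replication list. CCAAT, the letters bound by the factor NF-Y, was found on either strand in 52.9% of the members' windows and in 34.6% of all windows, and the cell cycle letters TTTGAA or TTTAAA, on either strand, in 11.8% and 24.0%. Matches describe the letters alone. EZH2 holds them and fell with both knockdowns, and CBX3 and UHRF1 hold them and fell with both under the replicate block. SUZ12 and DNMT1 hold them and passed neither with the groups alone nor with the block, and EED and CBX1 passed without them. The tally depends on the setting. With the trend with transcript length removed besides the block, DNMT1 fell with KD 86 (limma adjusted p = 0.0145) and CBX3 did not pass there (0.0845). Whether E2F factors have a part in these changes was not tested.

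EZH2 and EED, but not SUZ12, were the PRC2 core transcripts that fell. EZH2 (chromosome 7, 148807383 to 148884321, GRCh38), the H3K27 methyltransferase, stood at 715, 805 and 664 normalised reads in the EV libraries, 321, 352 and 370.4 in KD 86 and 334, 519.8 and 462 in KD 87. All 6 knockdown libraries lay below all 3 EV libraries, and KD 86 and KD 87 overlapped. The group levels were 728 ± 71.3, 348 ± 25.2 and 439 ± 95.03 (SD, n = 3 each). EZH2 fell 2.09-fold with KD 86 (log2 fold change -1.06, 95% interval -1.51 to -0.61, limma adjusted p = 0.00302) and 1.68-fold with KD 87 (-0.75, -1.20 to -0.30, adjusted p = 0.0423). The difference between the knockdowns, 0.31 on the log2 scale (interval -0.14 to 0.76), did not pass (adjusted p = 0.291). The call with KD 86 held without any 1 of the 9 libraries. That with KD 87 was lost without any 1 of them, with adjusted p between 0.0522 and 0.174, the highest without KD 87 replicate 1. It was also lost without a variance trend (adjusted p = 0.0557) and in a fit of only the groups compared (0.0923), and was kept with the replicate block (adjusted p = 0.00678).

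EED (chromosome 11, 86244544 to 86278813), which reads H3K27 trimethylation and stimulates EZH2, stood at 1337, 761 and 1087 normalised reads in EV, 600.4, 374 and 592 in KD 86 and 646, 612 and 964 in KD 87. Every KD 86 library lay below every EV and every KD 87 library, while KD 87 overlapped EV. EED fell 2.02-fold with KD 86 (log2 fold change -1.02, 95% interval -1.64 to -0.40, adjusted p = 0.0174). It no longer passed without EV replicate 1 (adjusted p = 0.0725) and without KD 86 replicate 2 (adjusted p = 0.0773). With KD 87 the log2 fold change was -0.51 (adjusted p = 0.267, and 0.0483 with the replicate block), each KD 87 library being lower than the EV library of its number. The difference between the knockdowns, 0.51 on the log2 scale, gave an adjusted p of 0.215, and 0.0379 with the block.

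SUZ12 (chromosome 17, 31937018 to 32001045), the scaffold of PRC2, stood at 1023, 1667 and 1352 normalised reads in EV, 1580.3, 1504 and 1534 in KD 86 and 1005, 1280.3 and 1342 in KD 87, so that both knockdowns overlapped EV and every KD 87 library lay below every KD 86 library. Its log2 fold change was 0.22 with KD 86 (95% interval -0.24 to 0.68, adjusted p = 0.435) and -0.14 with KD 87 (-0.60 to 0.32, adjusted p = 0.706), and it took the opposite sign with KD 86 once the trend with transcript length was removed (-0.05). A pseudogene, SUZ12P1, reached at most 132 normalised reads, and reads it shares with SUZ12 cannot be told apart here.

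Ratios of reads within a library do not depend on how libraries were scaled. The ratio of EZH2 to SUZ12 reads was 0.699, 0.483 and 0.491 in EV, 0.203, 0.234 and 0.241 in KD 86 and 0.333, 0.406 and 0.344 in KD 87, and no 2 groups overlapped. It was lower than in EV by a log2 difference of -1.28 with KD 86 and -0.61 with KD 87, and higher with KD 87 than with KD 86 by 0.67. Each exact two-sided permutation p was 0.1, the smallest that 3 libraries against 3 allow. The ratio of EED to SUZ12 was 1.31, 0.457 and 0.804 in EV, 0.38, 0.249 and 0.386 in KD 86 and 0.643, 0.478 and 0.719 in KD 87. Here KD 86 lay below both other groups, each with an exact permutation p of 0.1, and KD 87 overlapped EV with an exact permutation p of 0.5. The pairs for these and the later ratios were chosen after the fits had been seen, and over the 15 exact permutation tests of 5 ratios the smallest adjusted p was 0.188.

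**Figure D2:**
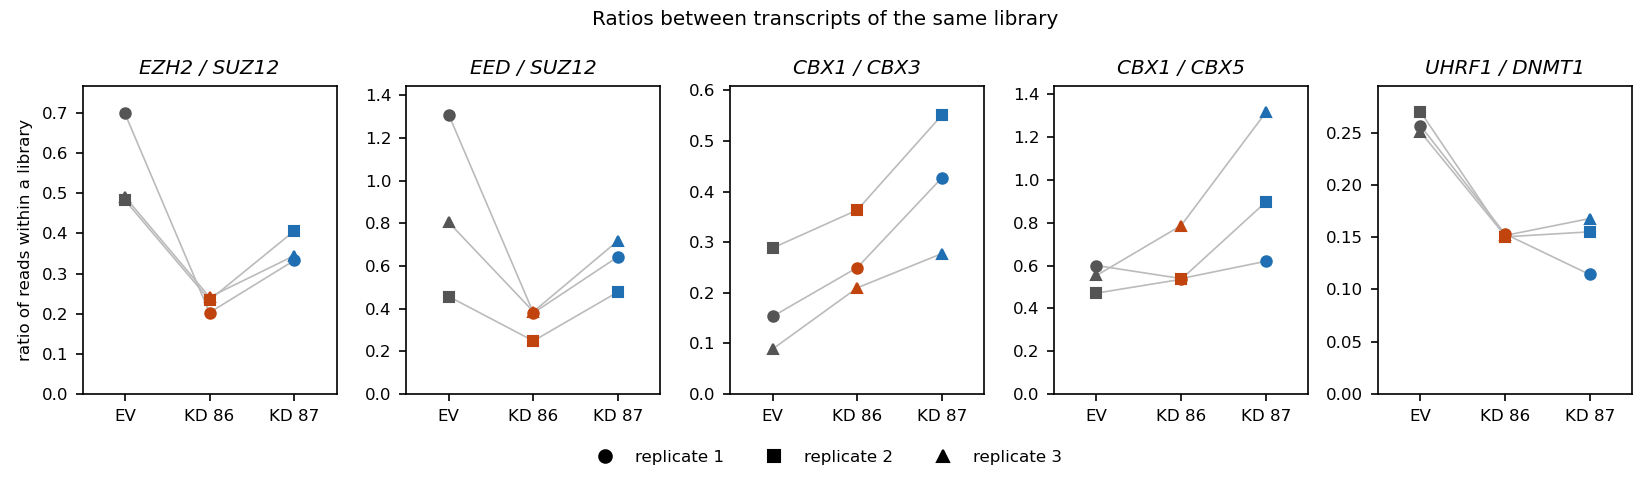
Ratio of the reads of 2 transcripts in the same library (y axis, from 0, a scale of its own in each panel) by group (x axis), with lines joining libraries of the same replicate number. The UHRF1 to DNMT1 ratio lies at 0.251 to 0.27 in the 3 EV libraries and at 0.114 to 0.168 in the 6 knockdown libraries, and the EZH2 to SUZ12 ratio is lowest in KD 86.

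Among the other PRC2 genes, 2 of 9 tested rose and 1 fell with KD 86, and 1 rose and 1 fell with KD 87, with a median log2 fold change of 0.01 and -0.19. With the replicate block 3 rose and 3 fell with KD 87. Of all genes 18% rose and 17.6% fell with KD 86, and 5.87% and 4.43% with KD 87 (16.1% and 14.9% with the block). JARID2, an accessory subunit that helps PRC2 find its target genes, stood at 202, 384 and 208 normalised reads in EV, 626, 934 and 791 in KD 86 and 657, 741 and 463 in KD 87, all 6 knockdown libraries being above EV. It rose 3.05-fold with KD 86 (adjusted p = 0.00219) and 2.40-fold with KD 87 (adjusted p = 0.0221), the latter with an adjusted p of up to 0.0997 without EV replicate 1 or 3 or KD 87 replicate 1 or 2. RBBP7, a histone-binding subunit shared with other complexes, fell 1.95-fold with KD 86, from 3512 ± 802 to 1771 ± 154 (SD, n = 3; adjusted p = 0.00449), and its log2 fold change was -0.59 with KD 87 (adjusted p = 0.0879, and 0.0186 with the block). EPOP, an accessory subunit of another form of PRC2, stood at 345, 348 and 281 in EV, 273, 285 and 334 in KD 86 and 80.9, 117 and 142 in KD 87. It fell 2.91-fold with KD 87 (adjusted p = 0.00479) and not with KD 86 (log2 fold change -0.12, adjusted p = 0.709), and the difference between the knockdowns passed (adjusted p = 0.002). MTF2, which brings PRC2 to CpG islands, rose 1.47-fold with KD 86 (adjusted p = 0.0474), a call lost in 14 of 21 other settings (adjusted p up to 0.263), among them every one that left out a library.

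PRC1, which ubiquitinates histone H2A and compacts chromatin at PRC2 targets, had 4 of 23 tested subunits higher and 3 lower with KD 86, and 2 higher and 0 lower with KD 87 (2 lower at an unadjusted p under 0.05, 0 with voom weights; median log2 fold change 0.02 and 0.15). With the block 5 rose and 7 fell with KD 86, and 4 rose and 2 fell with KD 87. Among all genes 18% rose and 17.6% fell with KD 86, and 5.87% and 4.43% with KD 87. The block gave 27% and 28.4%, and 16.1% and 14.9%. By the test of the difference, 4 of 23 were higher and 1 lower with KD 87 than with KD 86, and 4 higher and 6 lower with the block. For that test the shares of all genes were 12.7% higher and 12.8% lower, and 22.3% and 21.8% with the block. RYBP, a subunit of PRC1 forms that lack a CBX protein, stood at 550.3, 698 and 539 normalised reads in EV, 1469, 1407 and 1351 in KD 86 and 439, 507 and 479.5 in KD 87. It rose 2.38-fold with KD 86 (adjusted p = 0.000569) and its log2 fold change was -0.32 with KD 87 (adjusted p = 0.263), a difference of -1.57 (adjusted p = 0.000294). CBX7, a reader of H3K27 trimethylation, stood at 137, 166 and 156 in EV, 60.0, 82.5 and 114 in KD 86 and 331, 319 and 323 in KD 87, with no overlap between any groups. It fell 1.84-fold with KD 86 (adjusted p = 0.0192) and rose 2.12-fold with KD 87 (adjusted p = 0.0219); the difference passed (adjusted p = 0.000504) in all 21 other settings. The call with KD 86 was lost without KD 86 replicate 1 or 2 and in a fit of only the groups compared (adjusted p up to 0.0603), and that with KD 87 without EV replicate 1 or KD 87 replicate 1 or 2 (up to 0.0915). PHC2, a polyhomeotic subunit, rose 1.62-fold with KD 86 (adjusted p = 0.0107, and 0.0551 without KD 86 replicate 2). Its KD 87 libraries (4531, 4833 and 4322) also lay above EV (3204, 4010 and 3544), without passing. Of the 3 tested genes of the complex that removes ubiquitin from H2A, ASXL2 rose 2.45-fold with KD 86 (adjusted p = 0.0331), a call lost without EV replicate 1 or 3 or KD 86 replicate 1 or 2 (adjusted p up to 0.12), and 0 passed with KD 87 (1 at an unadjusted p under 0.05, 0 with voom weights). With the block 2 rose with KD 86 and 1 with KD 87.

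Neither H3K9 methyltransferase among the 10 passed with the groups alone. SUV39H1 (chromosome X, 48695554 to 48709012), which trimethylates H3K9 at constitutive heterochromatin, stood at 601, 632 and 390.3 normalised reads in EV, 745, 493 and 374 in KD 86 and 317, 382 and 299 in KD 87. All KD 87 libraries lay below all EV libraries, while KD 86 overlapped both. With KD 87 the log2 fold change was -0.68 (95% interval -1.29 to -0.06, adjusted p = 0.147), and it passed with the replicate block (adjusted p = 0.0219), as did the difference from KD 86 (-0.64, adjusted p = 0.12 and 0.0192 with the block). With KD 86 it was -0.04 (-0.65 to 0.58, adjusted p = 0.93).

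SETDB1 (chromosome 1, 150926263 to 150964744), which silences repeats and genes bound by zinc finger repressors, stood at 822, 1024 and 835 normalised reads in EV, 1162, 1117 and 1022 in KD 86 and 947, 952 and 810.4 in KD 87. KD 87 lay below KD 86 in all libraries, and each overlapped EV. The log2 fold changes were 0.31 with KD 86 (95% interval -0.07 to 0.68, adjusted p = 0.187) and 0.02 with KD 87 (-0.36 to 0.40, adjusted p = 0.957). An exon of SETDB1 overlaps CERS2, which lies on the opposite strand and reached 6282 normalised reads. The strand setting of the authors' counting is not given in the sources used here, so reads of the 2 genes in the overlap cannot be told apart.

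Of 16 other H3K9 and H4K20 methyltransferases and their partners, 5 rose and 3 fell with KD 86 and 0 rose and 1 fell with KD 87 (3 higher at an unadjusted p under 0.05, 0 with voom weights; median log2 fold change -0.05 and 0.07). With the block 6 rose and 5 fell with KD 86, and 3 rose and 2 fell with KD 87. The shares of all genes were 18% higher and 17.6% lower with KD 86, and 5.87% and 4.43% with KD 87. Blocked, these were 27% and 28.4%, and 16.1% and 14.9%. ATF7IP, which protects SETDB1 from degradation, rose 2.20-fold with KD 86, from 398, 800.5 and 401 normalised reads to 1027, 1292 and 1034 (adjusted p = 0.0108), in all 21 other settings too. With KD 87 its log2 fold change was 0.60 (adjusted p = 0.2, and 0.0267 with the block). ZNF644, a zinc finger partner of the H3K9 methyltransferases EHMT1 and EHMT2, rose 1.91-fold with KD 86 (adjusted p = 0.0151, and 0.0555 without KD 86 replicate 2). Its KD 87 libraries (968, 977 and 808) also lay above EV (354, 746 and 537), without passing with the groups alone. PRDM2, a methyltransferase of the PRDM family, rose 2.13-fold with KD 86 (adjusted p = 0.021) and SUV420H1, which writes H4K20 methylation at heterochromatin, 1.75-fold (adjusted p = 0.0212). Both calls were lost without EV replicate 1 and without KD 86 replicate 1 or 2, PRDM2's also without EV replicate 3, with adjusted p up to 0.0831 and 0.0785. SETD8, which monomethylates H4K20 in the cell cycle, stood at 947, 931 and 762 in EV, 905, 957 and 904 in KD 86 and 383, 537 and 522 in KD 87. It fell 1.84-fold with KD 87 (adjusted p = 0.0173; up to 0.0854 without EV replicate 1 or KD 87 replicate 1 or in a fit of only the groups compared), and the difference from KD 86 passed (adjusted p = 0.00467).

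Of the 3 HP1 transcripts CBX1 passed with the groups alone, CBX3 with the replicate block and CBX5 with neither. CBX1 (HP1 beta; chromosome 17, 48070052 to 48101521) stood at 906, 1094 and 746 normalised reads in EV, 1176, 1137 and 1061 in KD 86 and 1332, 1702 and 1569 in KD 87. Every KD 87 library lay above every EV and every KD 86 library, and KD 86 overlapped EV. CBX1 rose 1.69-fold with KD 87 (log2 fold change 0.75, 95% interval 0.33 to 1.18, adjusted p = 0.0313) and its log2 fold change was 0.31 with KD 86 (-0.11 to 0.73, adjusted p = 0.221). The call with KD 87 held without EV replicate 2 or KD 86 replicate 1 and was lost without any 1 of the other 7 libraries, with adjusted p up to 0.122 (without KD 87 replicate 2). In a fit of only the groups compared it was lost too (adjusted p = 0.0807), so that 0 of the 10 members passed with KD 87 there. With the replicate block it held (adjusted p = 0.00476), and the difference between the knockdowns, 0.44, passed only with it (adjusted p = 0.0362, and 0.115 without). All 5 pseudogenes named after CBX1 were listed at 0.

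CBX3 (HP1 gamma; chromosome 7, 26201162 to 26213356), found also along transcribed genes, stood at 5908, 3789.5 and 8392 normalised reads in EV, 4704, 3127 and 5054 in KD 86 and 3118, 3087 and 5652 in KD 87. The groups overlapped, EV replicate 2 being low, but each of the 6 knockdown libraries was lower than the EV library of its number. The log2 fold changes were -0.45 (95% interval -1.19 to 0.30, adjusted p = 0.323) and -0.60 (-1.34 to 0.15, adjusted p = 0.282), and both passed with the block (adjusted p = 0.0461 and 0.0237). With the length trend removed as well, the call with KD 86 was lost (adjusted p = 0.0845). Of 9 pseudogenes named after CBX3, 2 were above 0, at up to 74.4 normalised reads, and an exon of CBX3 overlaps HNRNPA2B1 on the opposite strand, which reached 28094.

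CBX5 (HP1 alpha; chromosome 12, 54230940 to 54280133), the HP1 protein most bound to constitutive heterochromatin, stood at 1509.6, 2321 and 1348 normalised reads in EV, 2179.7, 2123 and 1348 in KD 86 and 2149, 1898 and 1193 in KD 87, all overlapping. Its log2 fold changes were 0.13 (95% interval -0.52 to 0.79, adjusted p = 0.751) and 0.01 (-0.64 to 0.67, adjusted p = 0.981), and their signs changed without single libraries. In every group replicate 3 was the lowest library. The ratio of CBX1 to CBX5 reads was 0.6, 0.471 and 0.554 in EV and 0.62, 0.897 and 1.31 in KD 87, which lay above EV in all 3 libraries (log2 difference 0.74, exact permutation p = 0.1), and 0.539, 0.536 and 0.787 in KD 86, which overlapped EV (exact permutation p = 0.6). The ratio of CBX1 to CBX3 overlapped between EV and both knockdowns, although it was higher in each of the 6 knockdown libraries than in the EV library of its number; the log2 differences were 0.76 (exact permutation p = 0.3) and 1.35 (exact permutation p = 0.2).

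**Figure D3:**
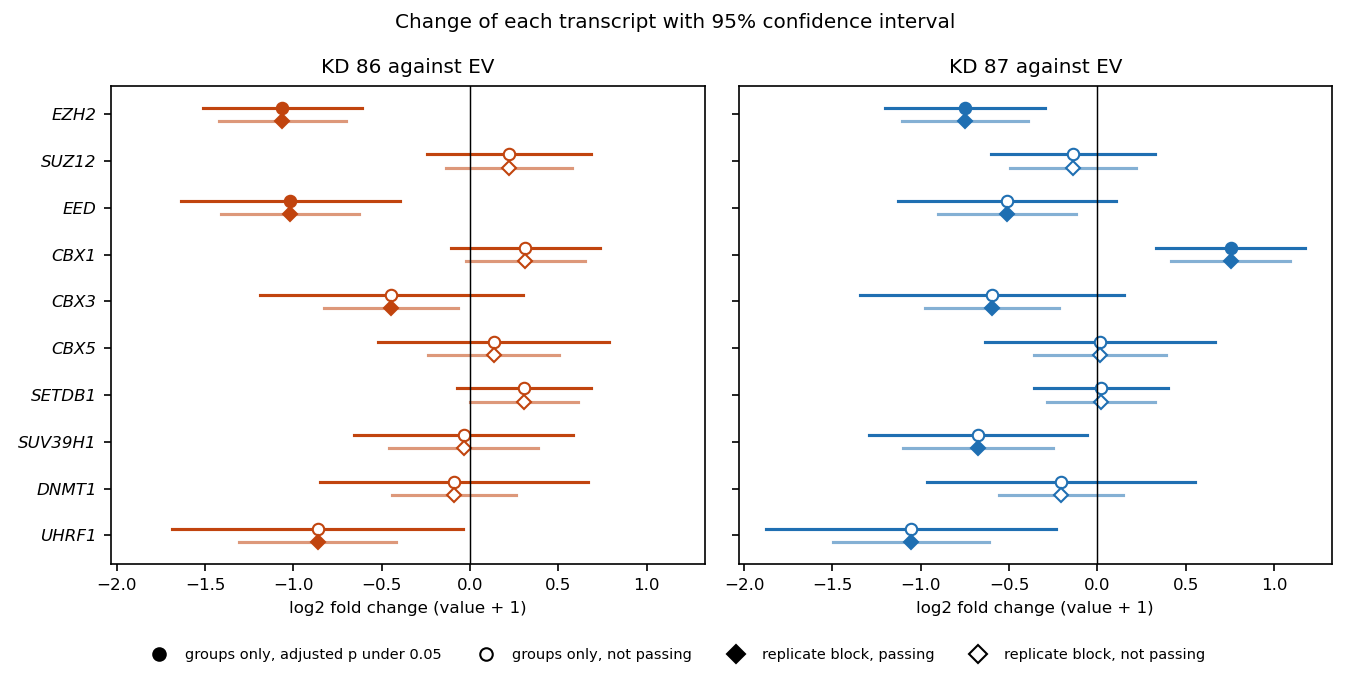
Log2 fold change of the value plus 1 (x axis) for each transcript (y axis) with KD 86 (left) and KD 87 (right) against EV, with 95% intervals. Circles are the limma fit with the groups alone and diamonds that with the replicate block, filled where the adjusted p is under 0.05; EZH2 is filled in all 4 positions, and UHRF1 only with the block.

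Of 16 HP1 partners and heterochromatin assembly genes, 3 rose and 3 fell with KD 86, and 0 rose and 3 fell with KD 87 (0 higher also at an unadjusted p under 0.05 and with voom weights; median log2 fold change -0.07 and -0.23). With the block 6 rose and 4 fell with KD 86, and 0 rose and 7 fell with KD 87. Beside these counts, 18% of all genes rose and 17.6% fell with KD 86, and 5.87% and 4.43% with KD 87. Shares with the block were 27% and 28.4%, and 16.1% and 14.9%. LBR, the inner nuclear membrane receptor that ties HP1 and heterochromatin to the lamina, stood at 1951, 1739.9 and 1681 normalised reads in EV, 1035, 829.8 and 935 in KD 86 and 1172, 1321 and 1404 in KD 87, all 6 knockdown libraries being below EV. It fell 1.92-fold with KD 86 (adjusted p = 0.00222), and with KD 87 the log2 fold change was -0.46 (adjusted p = 0.107, and 0.0346 with the block). HELLS, a remodeller needed for DNA methylation of repeats, fell 1.95-fold with KD 86 (adjusted p = 0.00655) and 1.85-fold with KD 87 (adjusted p = 0.0263). AURKB, the mitotic kinase that releases HP1 from chromatin, fell 3.49-fold with KD 86 (adjusted p = 0.000527) and 2.04-fold with KD 87 (adjusted p = 0.0254). CHAF1B, a subunit of the histone chaperone that works behind the replication fork, fell 1.99-fold with KD 87 (adjusted p = 0.0201) and its log2 fold change was -0.09 with KD 86. The KD 87 calls of HELLS, AURKB and CHAF1B were each lost without EV replicate 1, without KD 87 replicate 1 and in a fit of only the groups compared, that of HELLS also without KD 87 replicate 2, with adjusted p up to 0.119, 0.101 and 0.0952. ATRX, a remodeller of heterochromatin, rose 1.51-fold with KD 86 (adjusted p = 0.0255), a call lost with the length trend removed, in a fit of only the groups compared and without EV replicate 1 or KD 86 replicate 1 or 2 (adjusted p up to 0.787). Its KD 87 libraries (1672, 1768 and 2156) also lay above EV (1249.5, 1492 and 1540), without passing.

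Of UHRF1 and DNMT1, partners in the upkeep of DNA methylation, neither passed with the groups alone, and UHRF1 passed with the replicate block. UHRF1 (chromosome 19, 4903080 to 4962154) stood at 832, 1569.9 and 580.1 normalised reads in EV, 525, 607 and 394 in KD 86 and 323, 667 and 391 in KD 87. Each knockdown library was lower than the EV library of its number, but the groups overlapped, EV replicates 2 and 3 standing far apart. The log2 fold changes were -0.86 with KD 86 (95% interval -1.69 to -0.04, adjusted p = 0.0935) and -1.05 with KD 87 (-1.88 to -0.23, adjusted p = 0.0961). Both passed with the replicate block (adjusted p = 0.00398 and 0.00349) and with the length trend removed (adjusted p = 0.02 and 0.032, where 38.9% and 15.8% of all genes passed). Without EV replicate 2 they shrank to -0.47 and -0.66.

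DNMT1 (chromosome 19, 10133345 to 10231286), the maintenance DNA methyltransferase, stood at 3239, 5812 and 2314 normalised reads in EV, 3429, 4037 and 2597 in KD 86 and 2822, 4302 and 2329 in KD 87, all overlapping, with replicate 2 the highest and replicate 3 the lowest in each group. Its log2 fold changes were -0.09 (95% interval -0.85 to 0.67, adjusted p = 0.856) and -0.21 (-0.97 to 0.55, adjusted p = 0.732). With the length trend removed and the replicate block, that with KD 86 was -0.45 and passed (adjusted p = 0.0145), where 55.3% of all genes did and 34.9% with KD 87. The proliferation marker MKI67 showed the same high EV replicate 2 as DNMT1 and UHRF1, at 2071, 6581 and 1132 normalised reads in EV, 2652, 3139.9 and 1068 in KD 86 and 1084, 2063 and 566 in KD 87; its part in these values was not tested.

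The ratio of UHRF1 to DNMT1 reads varied little among the EV libraries, unlike either transcript. It was 0.257, 0.27 and 0.251 in EV, 0.153, 0.15 and 0.152 in KD 86 and 0.114, 0.155 and 0.168 in KD 87. All 6 knockdown libraries lay below all EV libraries, with log2 differences of -0.77 and -0.85, each with an exact permutation p of 0.1, the smallest possible. The knockdowns overlapped each other (log2 difference -0.08, exact permutation p = 1). Leaving out 1 library kept the differences from EV between -0.80 and -0.74 with KD 86 and between -0.96 and -0.68 with KD 87.

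Of 18 other DNA methylation genes tested, 3 rose and 2 fell with KD 86 and 0 passed with KD 87 (median log2 fold change 0.15 and 0.23). At an unadjusted p under 0.05, 6 were higher and 3 lower with KD 87, where 0 passed with voom weights. With the replicate block 6 rose and 3 fell with KD 86, and 8 rose and 2 fell with KD 87. All genes had shares of 18% higher and 17.6% lower with KD 86, and 5.87% and 4.43% with KD 87. Under the block these were 27% and 28.4%, and 16.1% and 14.9%. DNMT3A, a de novo DNA methyltransferase, stood at 133, 184 and 127 normalised reads in EV, 321, 519.8 and 461 in KD 86 and 305, 243 and 175 in KD 87. It rose 2.90-fold with KD 86 (adjusted p = 0.00211) and its log2 fold change was 0.68 with KD 87 (adjusted p = 0.137, and 0.0438 with the block). UHRF2, the paralog of UHRF1, rose 1.78-fold with KD 86, from 588, 855 and 928 to 1146, 1532 and 1506 (adjusted p = 0.0119; 0.0543 without KD 86 replicate 2). With KD 87 UHRF2 stood at 1238, 1209 and 1222, above all EV libraries (log2 fold change 0.66, adjusted p = 0.0731, and 0.0106 with the block). CDCA7, an activator of HELLS, fell 4.21-fold with KD 86 (adjusted p = 0.00547) and MBD3, a methyl-CpG binding family member of the NuRD complex, 1.95-fold (adjusted p = 0.00517). The KD 87 libraries of MBD3 (1196, 1331 and 1193) also lay below EV (2223, 1710 and 1373), without passing with the groups alone. TET1, which oxidises methylated cytosine, had log2 fold changes of 0.83 and 1.33 (adjusted p = 0.115 and 0.0521; 0.0241 and 0.00521 with the block).

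Among erasers of H3K27 and H3K9 methylation, 5 of 13 rose and 2 fell with KD 86, and 2 rose and 0 fell with KD 87 (0 lower also at an unadjusted p under 0.05 and with voom weights). With the block 6 rose and 0 fell with KD 87. Over all genes 18% rose and 17.6% fell with KD 86, and 5.87% and 4.43% with KD 87 (16.1% and 14.9% with the block). The median log2 fold change of the list was 0.62 and 0.51, and 9 and 12 of the 13 had a value above 0. KDM3A, an H3K9 demethylase, stood at 221, 404 and 290.1 normalised reads in EV, 1149, 1603 and 1383 in KD 86 and 1286, 1005 and 847 in KD 87. All 6 knockdown libraries lay above EV, and KDM3A rose 4.60-fold with KD 86 (adjusted p = 0.000234) and 3.48-fold with KD 87 (adjusted p = 0.00335), in all 21 other settings each. KDM7A, a demethylase of H3K9 and H3K27, rose 3.71-fold with KD 86 (adjusted p = 0.00113) and 2.77-fold with KD 87 (adjusted p = 0.0135; up to 0.0698 without EV replicate 1 or KD 87 replicate 1 or 2). JMJD1C, of the KDM3 family, rose 2.27-fold with KD 86 (adjusted p = 0.014; up to 0.0608 without EV replicate 1 or KD 86 replicate 2). KDM1A, which removes lower methylation states of H3K4 and H3K9, fell 1.65-fold with KD 86 (adjusted p = 0.00877). KDM4D, a testis-enriched H3K9 demethylase, stood at 48.9, 49.3 and 23.7 in EV, 7.75, 7.90 and 7.03 in KD 86 and 54.6, 61.7 and 49.9 in KD 87; it fell with KD 86 (adjusted p = 0.00116) and differed between the knockdowns (adjusted p = 0.000562).

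**Figure D4:**
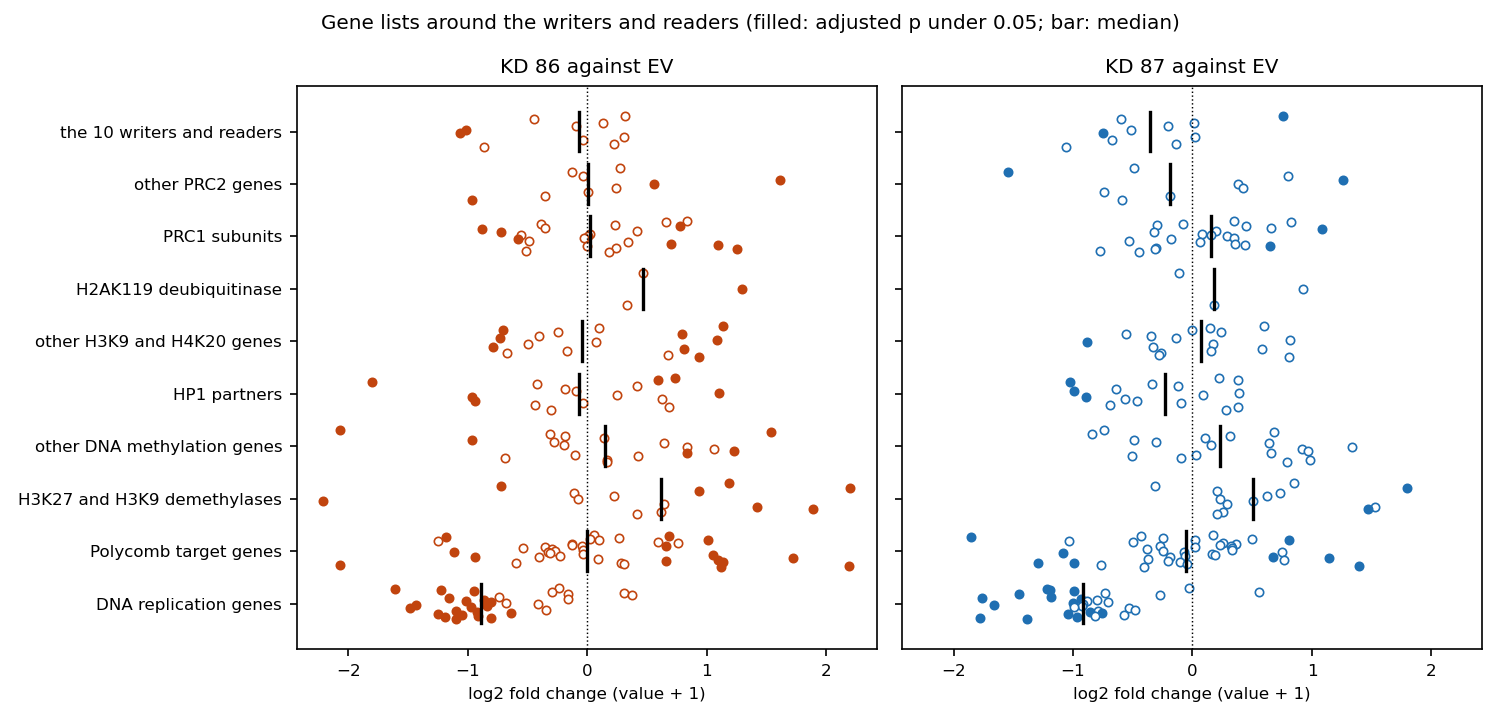
Log2 fold change of the value plus 1 (x axis) of every tested gene of 10 lists (y axis) with KD 86 (left) and KD 87 (right) against EV; each point is a gene, filled where the limma adjusted p is under 0.05, and black bars are list medians. The DNA replication list lies to the left with medians of -0.89 and -0.92, the demethylases to the right with 0.62 and 0.51, and the 10 writers and readers spread around their medians of -0.06 and -0.36.

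DNA replication genes, set beside the members because several of these are made in S phase, fell in 20 of 30 with KD 86 and in 15 of 30 with KD 87, with medians of -0.89 and -0.92. With the block 26 fell and 1 rose with KD 87. By comparison 17.6% of all genes fell with KD 86 and 4.43% with KD 87. With KD 87 and the block 14.9% of all genes fell and 16.1% rose. By limma with the groups alone, or with voom weights, 0 rose with either knockdown; at an unadjusted p under 0.05, 0 and 1 were higher. EZH2 (-1.06 and -0.75) and UHRF1 (-0.86 and -1.05) had log2 fold changes of the size of this list's median, while DNMT1 (-0.09 and -0.21) lay nearer to 0. MCM6, of the replicative helicase, fell 2.70-fold with KD 86 (adjusted p = 0.00136) and 3.16-fold with KD 87 (adjusted p = 0.00335). CCNE2, a cyclin of S phase entry, fell 3.06-fold with KD 86 (adjusted p = 0.00086) and 2.33-fold with KD 87 (adjusted p = 0.012; 0.0657 without KD 87 replicate 1). E2F1, one of the factors that bind the letters searched, stood at 830.4, 918 and 653 normalised reads in EV, 658, 677 and 802 in KD 86 and 194, 355 and 352 in KD 87. It fell 2.73-fold with KD 87 (adjusted p = 0.00806) and its log2 fold change was -0.16 with KD 86 (adjusted p = 0.651), a difference that passed (adjusted p = 0.00465). Whether the members' changes follow the share of cells in S phase was not tested.

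Developmental genes known as Polycomb targets had a median log2 fold change of -0.0048 with KD 86 and -0.05 with KD 87, beside -0.04 and -0.00081 over all genes. Of 54 in the files 38 were tested. HOXD1, NKX2-2 and HOXA2 had reads but were left out, being above 0 only in EV and KD 86 or only in KD 87. HOXD1 stood at 4.45, 6.40 and 4.31 in EV, 52.3, 35.1 and 31.6 in KD 86 and 0 in KD 87. NKX2-2 was at 0 in KD 87 alone. HOXA2 stood at 11.6, 18.8 and 33.6 in KD 87 and 0 elsewhere. Such a 0 may come from a separate filter. Among the 38 tested, 10 rose and 4 fell with KD 86, where 18% of all genes rose and 17.6% fell. With KD 87, 4 rose and 4 fell, where 5.87% and 4.43% of all genes did. TBX3, a T-box factor, stood at 605, 976 and 679 normalised reads in EV, 2785, 4118 and 3346 in KD 86 and 1682, 2352 and 1851 in KD 87. It rose 4.57-fold with KD 86 (adjusted p = 0.000165) and 2.63-fold with KD 87 (adjusted p = 0.00658). HOXC9, a posterior HOX gene, rose 3.31-fold with KD 86 (adjusted p = 0.000189) and 2.21-fold with KD 87 (adjusted p = 0.00638), from 118.95, 108 and 114 in EV to 445, 349 and 347 and 242, 243 and 274. GATA3 went the other way, from 128, 84.1 and 99.2 in EV to 59.1, 31.6 and 46.9 in KD 86 and 27.3, 21.4 and 35.6 in KD 87, and fell 2.27-fold with KD 86 (adjusted p = 0.0172; up to 0.08 without EV replicate 1 or KD 86 replicate 2) and 3.62-fold with KD 87 (adjusted p = 0.00791). PAX3, a factor of the melanocyte lineage, and HOXC10 fell with KD 87, 2.45-fold (adjusted p = 0.00554) and 2.12-fold (adjusted p = 0.00507), and both differed between the knockdowns (adjusted p = 0.000615 and 0.00801).

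Among germline genes known to be silenced by DNA methylation, those with reads here did not rise. Of 24 in the files 10 were above 0, and these 10 were tested. All 10 were already on in EV, with means from 17.3 (CTAG2) to 18246 (MAGEA4). The others were listed at 0 in all libraries and could not be tested, so the counts do not cover genes silent in EV. With KD 86, 5 fell and 0 rose, where 17.6% of all genes fell and 18% rose. With KD 87, 3 fell and 0 rose, where 4.43% and 5.87% of all genes did. With both, 0 were higher also at an unadjusted p under 0.05 and with voom weights. The targeted SPANXC and SPANXD are among the falls with both, and their falls are the knockdown itself. MAGEA4, a cancer-testis antigen, stood at 23155, 14684 and 16899 normalised reads in EV, 6925, 5414 and 6599.5 in KD 86 and 14362, 12051 and 15218 in KD 87 and fell 2.85-fold with KD 86 (adjusted p = 0.00086). MAGEC2, of the same family, fell with KD 87, where it stood at 1508, 1205 and 1186 against 2840.3, 2425 and 1987 in EV (adjusted p = 0.0205; up to 0.0833 without EV replicate 1 or any KD 87 replicate).

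Levels were compared across the 9 libraries, which share 3 groups and a pairing by number, by Pearson r on the log2 scale. The pairs that ran together most were DNMT1 and UHRF1 (0.787), CBX5 and DNMT1 (0.776) and EZH2 and UHRF1 (0.764). EED and CBX3 (0.740), CBX5 and SETDB1 (0.719) and EZH2 and EED (0.694) followed. The levels of EED and SETDB1 (-0.844) and of CBX3 and CBX5 (-0.756) ran opposite. SUZ12 had an r of -0.055 with EZH2. Over the same libraries the transcripts most like EZH2 among 11320 were those of COASY, a coenzyme A synthase (r of 0.987), NUSAP1, a spindle protein (0.981), and DDX39A, an RNA helicase (0.975). Those most like EED were SOHLH2 (0.993), GTF2F2 (0.992) and C4orf27 (0.991), and those most like CBX1 were ZNF281 (0.944), the H3K9 demethylase KDM4B (0.917) and PSKH1 (0.895). These are the highest of many values over few libraries.

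Counted by libraries that do not overlap, 2 of the 10 transcripts lay wholly below EV with KD 86 (EZH2 and EED, where 22.9% of all genes did) and 0 wholly above (22.5%). With KD 87, EZH2 and SUV39H1 lay wholly below EV (14% of all genes) and CBX1 wholly above (15.2%). Between the knockdowns, EED and CBX1 lay higher in every KD 87 library than in every KD 86 library (22.9% of all genes) and SUZ12 and SETDB1 lower (22.4%). By limma with the groups alone, 0 of the 10 passed the test of this difference (2 at an unadjusted p under 0.05, CBX1 and SUV39H1, and 0 with voom weights), where 25.6% of all genes passed (12.7% higher and 12.8% lower). With the block, CBX1 and EED were higher with KD 87 than with KD 86 and SUV39H1 was lower, against 22.3% and 21.8% of all genes, 44.1% in all.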

How the data were processed

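RNA of 9 A375 libraries (QuantSeq 3' ends) was measured in 3 groups of 3. The submitters' processing notes name STAR, featureCounts, Subread, edgeR and hg19, with no versions; the strand setting is not given in the sources used here. The deposited values are scores: reads per gene that the authors scaled by a factor for each library and rounded. A grid with 1 step was fitted to the low values of each library, and dividing by the step and rounding gave the reads (11310675 to 15564093 a library). The step was below 1 in EV replicate 2, KD 86 replicates 1 and 2 and KD 87 replicate 2. There any whole value lies on the grid and neighbouring read counts can share a value, so their reads are approximate. Because the values are scaled, the planned count test was replaced. Reads were put on a common scale with TMM (trims of 30% and 5%) and called normalised reads. IDs above 0 only in the EV and KD 86 files (400) or only in those of KD 87 (453) were left out, since they appear to come from a separate filter, which left 13825 genes.

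Tests used limma 3.58.1 (R 4.3.3) on log2(value + 1) with a variance trend and all 3 groups (6 residual degrees of freedom), two-sided, with Benjamini-Hochberg adjustment over all 13825 genes and a threshold of 0.05. Fold changes are on this log2(value + 1) scale. The pairing by replicate number comes from the labels' numbers and the correlation of same-numbered libraries, which was above 0.1 for every pair. Named were the 10 members, SPANXC and SPANXD, and of each list up to 4 genes that ranked first by adjusted p for both knockdowns averaged, plus the first in each contrast. One gene that this rule names is not reported here. Members and lists were chosen with earlier results of these data known. Alternatives were the pseudocount, filter, scaling, variance trend, voom weights, replicate block, transcript length trend (99.6% of genes have a length), only the groups compared, and each library left out. Scripts were tested on simulated data. Gene positions are from GENCODE v29 and promoters from RefSeq (GRCh38.p14).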

Additional observations from a re-analysis of the deposited data

Results flagged for a closer look

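For these named genes, each of which passed against EV with at least 1 knockdown, the effect of KD 87 differed from that of KD 86 by limma's test of the difference itself, given here on the log2 scale as KD 87 minus KD 86 with its adjusted p. None of the 10 writers and readers is among them. The estimate of the difference is taken between the knockdown libraries. Of Polycomb genes, EPOP had a difference of -1.42 (adjusted p = 0.00201), RYBP -1.57 (adjusted p = 0.000294) and CBX7 1.96 (adjusted p = 0.000504), the last of which fell with KD 86 and rose with KD 87. Of chromatin genes at H4K20 and HP1, SETD8 differed by -0.95 (adjusted p = 0.00467), AURKB by 0.77 (adjusted p = 0.0401) and CHAF1B by -0.90 (adjusted p = 0.0137). Of DNA methylation genes, DNMT3A differed by -0.85 (adjusted p = 0.0424) and CDCA7 by 1.34 (adjusted p = 0.0498), and the H3K9 demethylase KDM4D by 2.72 (adjusted p = 0.000562). Among Polycomb targets TBX3 differed by -0.80 (adjusted p = 0.0309), HOXC9 by -0.58 (adjusted p = 0.0468), HOXC10 by -0.77 (adjusted p = 0.00801) and PAX3 by -1.58 (adjusted p = 0.000615). Of germline genes, MAGEA4 differed by 1.14 (adjusted p = 0.00468), MAGEC2 by -0.80 (adjusted p = 0.0141), MAGEA1 by 1.95 (adjusted p = 0.00381) and the targeted SPANXD by 2.20 (adjusted p = 0.0172), a fitted value that depends on the pseudocount, since KD 86 libraries hold at most 1 read of it. E2F1 differed by -1.29 (adjusted p = 0.00465), the reference transcript GUSB by 0.80 (adjusted p = 0.0117), the fibroblast marker PDGFRB by -1.15 (adjusted p = 0.0227) and the keratinocyte marker KRT14 by 2.46 (adjusted p = 0.000771). Several of these differences did not pass in other settings: that of CDCA7 was lost in 12 of 21 (adjusted p up to 0.171), HOXC9 in 9 (up to 0.147), AURKB in 7 (up to 0.153), DNMT3A in 5 (up to 0.158), TBX3 in 4 (up to 0.126), MAGEC2 in 3 (up to 0.0574), PDGFRB in 3 (up to 0.0837), SPANXD in 3 of 20 (up to 0.123), CHAF1B in 2 (up to 0.0525) and GUSB in 1 (0.0546, without KD 87 replicate 2). The losses of CDCA7 include the other filters and the median-of-ratios scaling, and those of HOXC9, TBX3, DNMT3A, MAGEC2, PDGFRB and CHAF1B come from leaving out single libraries, for HOXC9 also from the values as deposited. The other differences named here passed in all settings that gave a value.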

How the results depend on the processing

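Of 830 alternative values of the members' 40 results, 727 kept their direction and side of the threshold, 36 lost the call, 33 gained one and 34 took the opposite sign, 0 of these among the 7 called results. With the replicate block the number of genes called moved from 4929 to 7654 with KD 86, 1425 to 4285 with KD 87, 3533 to 6097 between the knockdowns and 3340 to 6497 for the mean of both against EV. With the length trend removed as well these were 7643, 4826, 6608 and 6572. With KD 87, 2630 genes were called without a filter, 2180 with the length trend removed and 855 in a fit of only the groups compared. Leaving out 1 library gave 3056 to 6020 with KD 86 (3056 without KD 86 replicate 2), 368 to 2549 with KD 87 (368 without KD 87 replicate 1), 2203 to 4194 between the knockdowns and 1458 to 4750 for the mean of both. The blocked values that change a member's call stand beside it, and the block changed no other member's call with KD 86, KD 87 or between them. With the length trend removed, the log2 fold change of SUZ12 was -0.0496 with KD 86 and -0.15 for the mean of both, that of SETDB1 with KD 87 -0.0157 and that of DNMT1 between the knockdowns 0.0861, each with and without the block. Leaving out 1 library took across 0 the values of SUZ12 with KD 87 (-0.32 to 0.0286) and for the mean of both (-0.14 to 0.21), CBX5 with KD 86 (-0.0242 to 0.37), KD 87 (-0.16 to 0.27), between the knockdowns (-0.34 to 0.13) and for the mean (-0.0838 to 0.31), SETDB1 with KD 87 (-0.0378 to 0.12), SUV39H1 with KD 86 (-0.30 to 0.19), DNMT1 with KD 86 (-0.39 to 0.27), KD 87 (-0.51 to 0.15), between them (-0.36 to 0.078) and for the mean (-0.45 to 0.21), and UHRF1 between them (-0.49 to 0.029). The cause was not tested. Every member had at least 294 reads in each library; the widest 95% intervals against EV were those of UHRF1 (-1.69 to -0.04 with KD 86). For the mean of both, a fit of only the groups compared uses all libraries and is no separate setting, and a few scarce genes such as KDM4D and GATA3 have no value under the filter at a mean of 5 CPM.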
